A study of Homo sapiens with 36 samples.

Results

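The late-induced genes of the E2F1 response are those whose RNA stayed near its starting level for the first 4 h of E2F1 activation and rose between 4 h and 8 h. They were chosen on the 18 control siRNA arrays alone, from probe sets that name 1 gene. A probe set had to have a mean signal of at least 200 at 8 h and a mean log2 change of no more than 0.4 in either direction between 0 h and 4 h. The 4272 probe sets that met these limits were ranked by their mean log2 change from 4 h to 8 h, and the first 100 were taken. These 100 probe sets name 94 genes, of 22215 probe sets tested and 11963 genes named by single-gene probe sets. The measured values of the control arrays thus chose the members, and control values are given below as a description with no test. The changes tested are those between the 18 arrays of cells treated with siRNA against NFYB, which the choice did not use. Variances came from a fit of both arms together, so the spread of the control arrays also entered the SE and p-values.

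E2F1 is a transcription factor that is held inactive by the retinoblastoma protein and, when free, activates genes of DNA replication, cell cycle entry and apoptosis. NF-Y is a trimer of NFYA, NFYB and NFYC that binds the CCAAT box in many promoters, and NFYB is itself a gene that E2F1 induces. In a system where a transcription factor is switched on at a known time, genes whose RNA changes within the first hours can be set apart from genes whose RNA accumulates later.

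The cells were U2OS ER-HA-E2F1, a human osteosarcoma line that carries, by retrovirus and puromycin selection, an HA-tagged E2F1 fused to the ligand-binding part of the estrogen receptor. The compound OHT (4-hydroxytamoxifen) lets this fusion enter the nucleus. Cells were transfected with Dharmacon or Sigma-Aldrich negative control siRNA, or with Ambion or Dharmacon siRNA against NFYB, were starved of serum for 24 h from 18 h after transfection, and then received 80 nM OHT for 4 h or 8 h or were collected at 0 h without it. Each of these 12 conditions had 3 biological replicates, so each arm (control siRNA or NFYB siRNA) had 6 arrays at each time, and all cells carried the fusion. No array had OHT without the fusion or the same hours without OHT, so E2F1 activity, OHT and time after starvation cannot be told apart. Values are MAS5 signals, a linear brightness of a probe set that the authors scaled to the same trimmed mean on each array. Array medians ran from 100 to 120 and arrays of 1 condition correlated at 0.951 to 0.962 over all probe sets.

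NFYB, the gene the siRNAs target, checked the labels of the arms. In control siRNA cells its probe set 218127_at had signals of 187 ± 15.7, 438 ± 38.9 and 649 ± 59.5 (SD, n = 6) at the 3 times in order. With NFYB siRNA these were 66.6 ± 10.7, 113 ± 38.8 and 127 ± 46.8. The 6 NFYB siRNA arrays lay below the 6 control arrays at each time. NFYB was already higher at 4 h in control cells and so was no member. E2F1 itself had control siRNA signals of 191 ± 28.9, 237 ± 46.5 and 244 ± 29.1 at those times on probe set 204947_at, and of 216 ± 39.5, 236 ± 47.5 and 202 ± 54.3 on 2028_s_at, and these 2 probe sets moved in opposite directions from 4 h to 8 h by less than their SD. Of 9 osteoblast lineage genes measured, 5 had a median signal of at least 200 (SPP1, COL1A1, SPARC, CDH11 and VIM), while RUNX2, the defining factor of that lineage, was at 15.1. None of 7 leukocyte and none of 6 endothelial markers reached 200, and of 8 epithelial markers EPCAM, KRT8 and KRT18 did.

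Most of the late-induced probe sets were also higher at 8 h than at 4 h in the NFYB siRNA cells, which had no part in choosing them. Between 4 h and 8 h in NFYB siRNA cells, 68 of the 100 probe sets (66 genes) were called higher at an adjusted p under 0.05 and 0 were called lower, where 6.49% of all tested probe sets and 8.26% of the candidates were called higher, and 9.99% and 9.93% lower. The limma change was above 0 for 99 of 100, and 32 did not pass the test. The median log2 change of the 100 was 0.54, with quartiles of 0.36 and 0.72, against -0.05 over all probe sets. All 6 arrays at 8 h lay above all 6 arrays at 4 h for 49 of the 100, against 4.06% of all probe sets and 4.49% of the candidates. In the control arrays that chose them the median change was 0.64 and 64 of the 100 were separated in that way. RNA was pooled over all cells of a culture, so a higher level per cell and a larger share of cells with the RNA cannot be told apart.

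**Figure D1:**
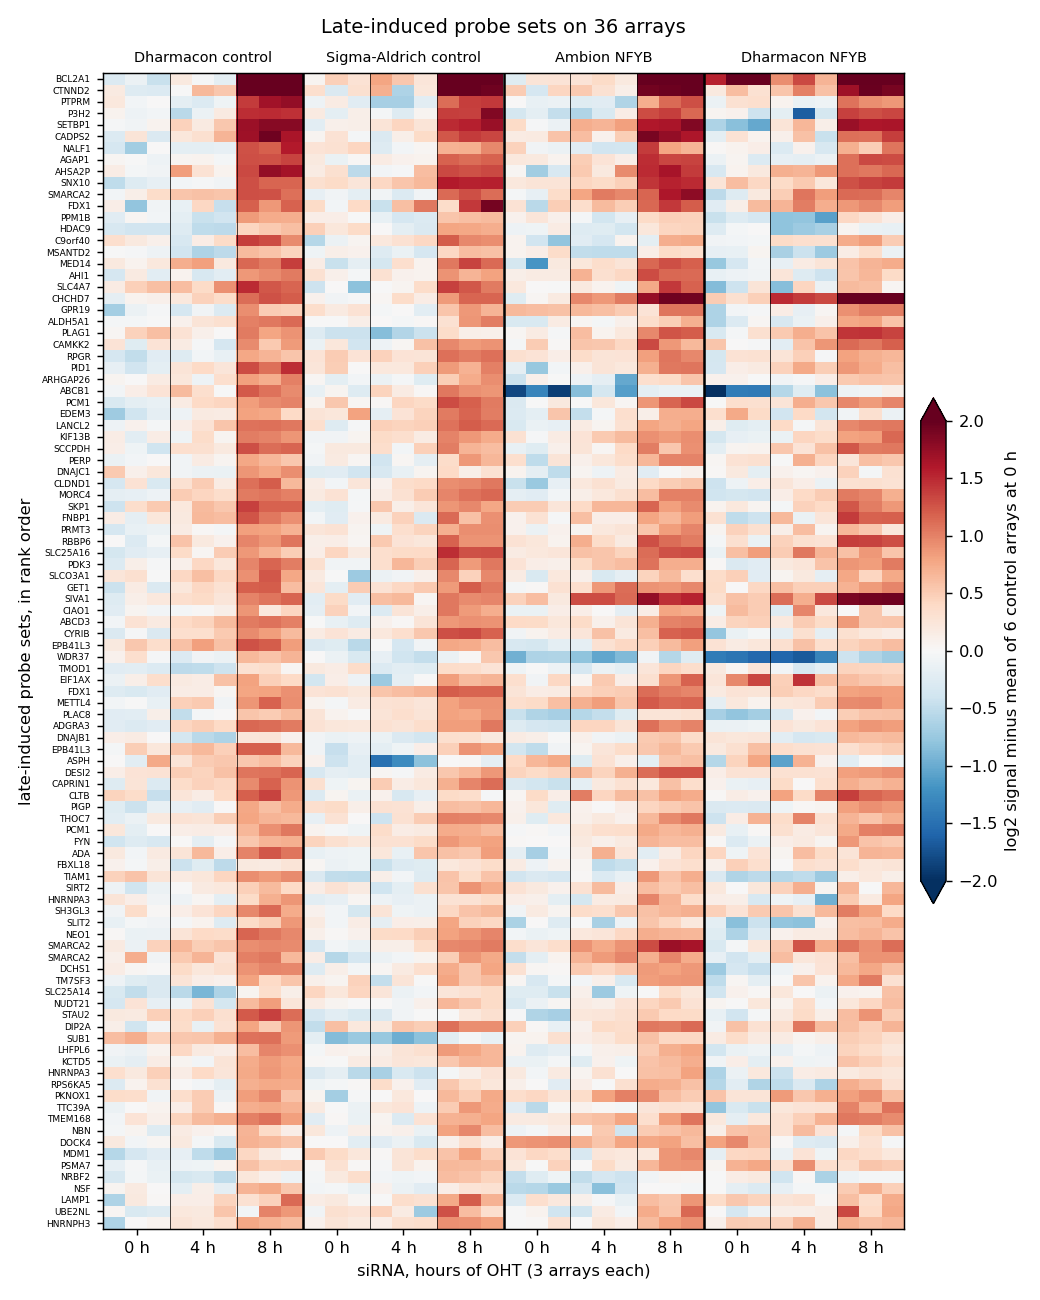
Log2 signal of the 100 late-induced probe sets (rows, in rank order) on each of the 36 arrays (columns, 3 per siRNA and time), as the difference from the mean of the 6 control arrays at 0 h. Most rows change colour between the 4 h and 8 h columns in all 4 siRNAs, and 68 of the 100 were called higher at 8 h than at 4 h in NFYB siRNA cells.

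The lead was held by the same 8 genes in both arms. The 8 probe sets with the greatest 4 h to 8 h change in control arrays were also the 8 with the greatest change in NFYB siRNA arrays, and all 8 separated the 6 arrays at 8 h from the 6 at 4 h there. BCL2A1, an anti-apoptotic member of the BCL2 family, had the steepest rise of the 100. Its signal in NFYB siRNA cells ran from 117 to 256 at 4 h (median 149) and from 703 to 976 at 8 h (median 805). This was a 5.14-fold rise, or 2.36 ± 0.28 on the log2 scale (SE, adjusted p = 9.92e-08), beside 7.19-fold in control siRNA cells.

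The low level of BCL2A1 before OHT was not common to the 4 siRNAs. At 0 h its signals with Dharmacon NFYB siRNA were 299, 435 and 480, while those with Ambion NFYB siRNA were 86.6, 122 and 124. The 6 control arrays at 0 h ran from 75.5 to 143. With Dharmacon NFYB siRNA the signal was then 165, 195 and 256 at 4 h and 703, 798 and 813 at 8 h. BCL2A1 thus lay lower at 4 h than at 0 h on all 3 arrays with that siRNA, and the call of no 4 h change in NFYB siRNA cells (adjusted p = 0.301) pooled siRNAs that started apart.

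The next 3 by control rank were CTNND2, PTPRM and P3H2. CTNND2, which encodes the cadherin-binding protein delta-catenin, went from a median of 66.8 (50.3 to 93.0) at 4 h to 177 (150 to 216) at 8 h in NFYB siRNA cells, a log2 rise of 1.43 ± 0.19 (adjusted p = 7.16e-07). PTPRM, a receptor tyrosine phosphatase that joins cells by binding itself, went from 294 (218 to 348) to 663 (548 to 812), or 1.21 ± 0.12 (adjusted p = 5.29e-09). P3H2, a prolyl hydroxylase of collagen chains, went from 58.6 (23.6 to 81.8) to 184 (164 to 193), or 1.80 ± 0.18 (adjusted p = 4.86e-09). The ranges at 4 h and 8 h did not overlap for any of these. Control siRNA cells showed log2 rises of 1.94, 1.81 and 1.62 for these genes in that order.

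The other 4 of these 8 were AGAP1, CADPS2, NALF1 and SETBP1. AGAP1, a GTPase-activating protein for Arf proteins, moved from 676 (595 to 938) to 1688 (1436 to 1866) in NFYB siRNA cells, a rise of 1.24 ± 0.09 with the smallest adjusted p of the 100 (3.65e-12). CADPS2, which primes dense-core vesicles for release, rose by 1.23 ± 0.17, and NALF1, an auxiliary factor of the sodium leak channel NALCN, by 1.10 ± 0.17. SETBP1, which binds the nuclear protein SET, rose by 1.13 ± 0.16 from a median of 143 at 4 h, but it had already risen by 0.92 ± 0.16 between 0 h and 4 h in NFYB siRNA cells (adjusted p = 1.04e-05). Of the next in rank, SNX10, a sorting nexin of endosomes, went from 1110 (975 to 1206) to 2218 (2008 to 2422), which is 2.01-fold. The pseudogene AHSA2P, related to an activator of HSP90, rose by 0.65 ± 0.17 in NFYB siRNA cells and by 1.16 in control cells. AHSA2P too had already risen between 0 h and 4 h in NFYB siRNA cells, by 0.83 ± 0.17 (adjusted p = 0.000144).

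**Figure D2:**
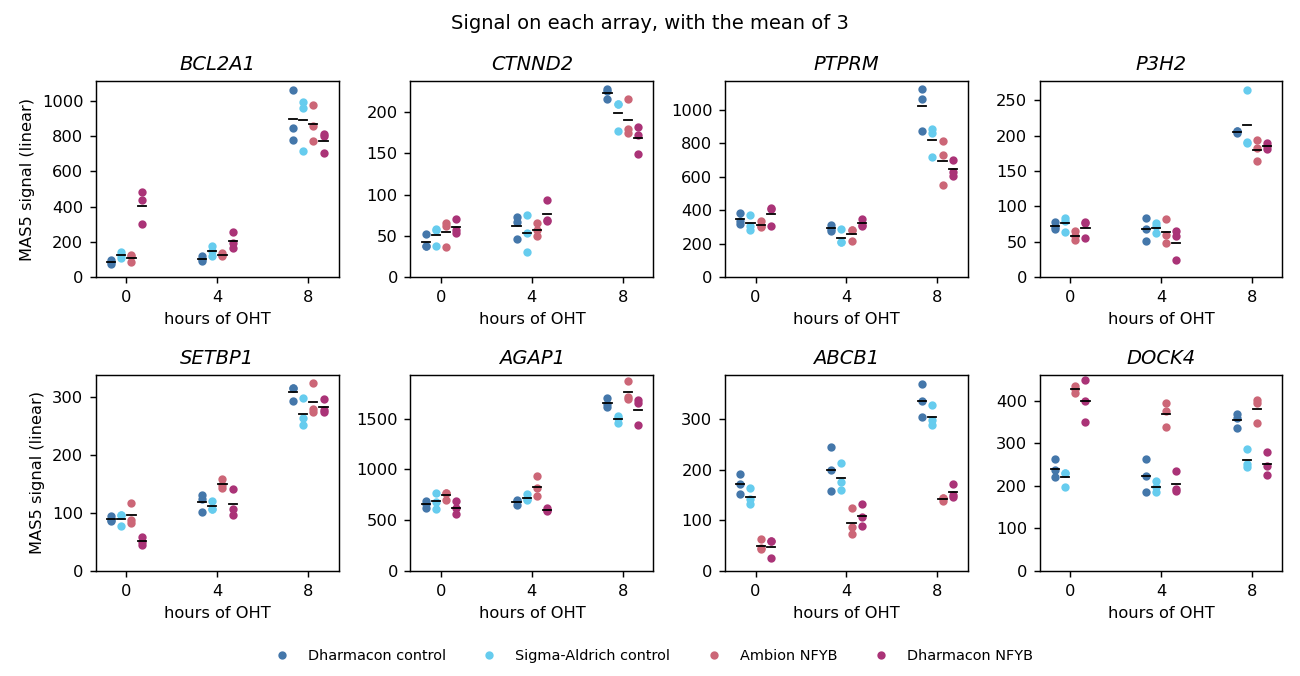
MAS5 signal (linear, vertical axis) of 8 late-induced genes against hours of OHT, with 1 point per array, 4 colours for the 4 siRNAs and a bar for each mean of 3. BCL2A1, CTNND2, PTPRM, P3H2, SETBP1 and AGAP1 are highest at 8 h with every siRNA, ABCB1 lies lower with both NFYB siRNAs at each time, and DOCK4 starts high with both NFYB siRNAs at 0 h.

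In the arrays that the rule did not use, most members lay within 0.4 of their 0 h level at 4 h. A larger share of them was nevertheless called higher by 4 h than of the candidates or of all probe sets. Between 0 h and 4 h in NFYB siRNA cells the median log2 change of the 100 was 0.18, with quartiles of 0.01 and 0.40. Of the 100, 71 lay within 0.4 of 0, 24 above and 5 below. The candidates had a median of -0.11 with quartiles of -0.24 and 0.06, and all probe sets -0.11 with -0.43 and 0.33. The test called 30 higher and 6 lower, beside 15% and 21.6% of all probe sets and 8.61% and 24% of the candidates. From 0 h to 8 h, 85 of the 100 were called higher and 1 lower, beside 18.5% and 29.4% of all probe sets and 17.3% and 37.3% of the candidates, with a median of 0.75. Of the 68 called higher from 4 h to 8 h, 40 had no call from 0 h to 4 h, and 23 were called higher at both steps. Set against the 100 probe sets with the greatest 4 h change in control arrays (early-induced, 82 genes), the order of the steps was turned round: those moved by a median of 3.56 by 4 h and 0.10 from 4 h to 8 h in NFYB siRNA cells. Of those early-induced probe sets 27 were called higher and 14 lower from 4 h to 8 h.

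Members with the earliest rise in NFYB siRNA cells were ABCB1, CHCHD7, SMARCA2 and SETBP1. ABCB1, the drug efflux pump P-glycoprotein, rose by 1.09 ± 0.17 between 0 h and 4 h (adjusted p = 1.18e-06) and by a further 0.57 ± 0.17 to 8 h. CHCHD7, a mitochondrial protein, rose by 0.97 ± 0.11 and then 0.81 ± 0.11. SMARCA2, an ATPase of the SWI/SNF chromatin remodelling complex, has 3 member probe sets, which rose by 0.93 ± 0.15 (206542_s_at), 0.71 ± 0.14 (217707_x_at) and 0.83 ± 0.16 (206544_x_at) in the first 4 h. From 4 h to 8 h these 3 changed by 0.44, 0.45 and 0.20, with adjusted p = 0.0446, 0.0181 and 0.477, and the calls of the first and second were lost in 6 and 3 of 12 fits that left out 1 array. In NFYB siRNA cells most of the SMARCA2 change therefore lay before 4 h.

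At the other end, 8 probe sets had NFYB siRNA changes from 4 h to 8 h of 0.20 or less, and none of them was called. ADA, adenosine deaminase, was the only member below 0, at -0.02 ± 0.16, with signals of 185 to 294 at 4 h and 154 to 285 at 8 h. PKNOX1, a homeobox transcription factor, changed by 0.02 ± 0.14, and DNAJC1, a chaperone of the endoplasmic reticulum, by 0.04 ± 0.14. The deacetylase SIRT2 (0.12), the hydroxylase ASPH (0.13), the translation initiation factor EIF1AX (0.14) and DOCK4, an activator of Rac (0.17), were the next, before SMARCA2 probe set 206544_x_at. ASPH signals in control cells at 4 h were 2632, 3115 and 3194 with Dharmacon siRNA and 782, 918 and 1241 with Sigma-Aldrich siRNA. At 8 h they were 3027 to 3354 and 1938 to 2227, so its control rise lay mainly with Sigma-Aldrich siRNA. In NFYB siRNA cells ASPH signals at 4 h spread from 1043 to 3556.

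DOCK4 was the 1 member called lower from 0 h to 8 h, and its NFYB siRNA arrays differed by siRNA. Its signals at 0 h were 419, 427 and 434 with Ambion NFYB siRNA and 351, 400 and 447 with Dharmacon NFYB siRNA, above the 198 to 263 of all 6 control arrays. At 4 h they were 338, 374 and 394 with Ambion siRNA and 188, 192 and 234 with Dharmacon siRNA. From 0 h to 4 h the pooled arm changed by -0.59 ± 0.16 (adjusted p = 0.00312). The call to a lower level from 0 h to 8 h (-0.42) was lost in 5 of 12 fits that left out 1 array: Ambion replicate 3 or Dharmacon replicate 2 at 0 h, or any of the 3 Dharmacon arrays at 8 h.

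The phosphatases and kinases named here were picked by role, with no list or test behind the grouping. PPM1B, a serine/threonine phosphatase of the PP2C family, moved from 485 (335 to 694) at 4 h to 945 (784 to 995) at 8 h in NFYB siRNA cells, or 0.90 ± 0.13 (adjusted p = 1.62e-06). It had been called lower from 0 h to 4 h (-0.44 ± 0.13). Among kinases, RPS6KA5 (MSK1), which phosphorylates CREB and histone H3, rose by 0.77 ± 0.14, CAMKK2, which activates AMP-activated kinase, by 0.58 ± 0.15 and the Src-family kinase FYN by 0.50 ± 0.11. PDK3, which switches off pyruvate dehydrogenase, rose by 0.46 ± 0.12. The member probe set of each of these 4 kinases was called higher from 4 h to 8 h, and in control arrays their changes were 0.55, 0.79, 0.61 and 0.67. On the brightest other probe set of each, RPS6KA5 (0.28), CAMKK2 (0.24) and FYN (0.33) were not called in NFYB siRNA cells, and PDK3 (0.56) was. The member calls of CAMKK2 and PDK3 were each lost in 1 fit that left out a replicate number.

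Among regulators of transcription, HDAC9, a class IIa histone deacetylase, was called lower from 0 h to 4 h (-0.46 ± 0.14) and higher from 4 h to 8 h (0.65 ± 0.14, adjusted p = 0.000708), moving from 330 (267 to 395) to 516 (421 to 633). MED14, a subunit of the Mediator complex, rose by 0.76 ± 0.19 and PLAG1, a zinc finger transcription factor, by 0.82 ± 0.19 from 4 h to 8 h in NFYB siRNA cells. RBBP6, a ubiquitin ligase that binds the retinoblastoma protein, rose by 0.86 ± 0.10 (adjusted p = 4.05e-08) against 0.67 in control cells.

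Secreted factors and receptors were picked in the same way, beside the receptor phosphatase PTPRM given with the leading genes. SLIT2, the secreted guidance ligand of ROBO receptors, went from 113 (81.4 to 152) at 4 h to 214 (166 to 240) at 8 h in NFYB siRNA cells, or 0.90 ± 0.15 (adjusted p = 3.2e-05). NEO1, a receptor for netrins and repulsive guidance molecules, rose by 0.44 ± 0.08, the orphan receptor GPR19 by 0.60 ± 0.18 and the adhesion receptor ADGRA3 by 0.61 ± 0.09. Inside the cell, TIAM1, an activator of Rac, rose by 0.80 ± 0.16, from 1025 (805 to 1365) to 1765 (1444 to 2429). All 5 were called higher, GPR19 only while Dharmacon NFYB siRNA replicate 2 at 4 h was kept.

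The members were also set against 29 gene lists for pathways. Together the lists held 11 of the 94 late-induced genes (11.7%), beside 922 of 11963 measured genes (7.71%), so most genes of either kind lay in no list. Of the lists, 8 held a late-induced gene. Counted with the brightest probe set of each gene, the apoptosis list had 30 measured genes, of which 7 were called higher and 7 lower from 4 h to 8 h in NFYB siRNA cells, with a median of 0.09, beside 7.70% and 12.2% of all genes and a median of -0.06. Its members among the late-induced genes were BCL2A1 and SIVA1, a proapoptotic factor, whose member probe set 210792_x_at rose by 0.60 ± 0.11. That SIVA1 probe set was already higher at 4 h with NFYB siRNA, with signals of 796 to 1073 at 0 h and 1148 to 1734 at 4 h. Its probe sets 203489_at and 222030_at rose by 0.66 and 1.19 by 4 h in those cells, and then by 0.60 and 0.02. BCL2, a gene of that list that is no member, rose in both steps, at 1.96 by 4 h and 0.82 ± 0.15 from 4 h to 8 h. It was picked as 1 example outside the rule for naming genes, from a list with as many genes called lower as higher. The list of ion channels and transporters had 10 of 42 called higher and 6 lower (median 0.16), and held ABCB1 and the sodium bicarbonate cotransporter SLC4A7, which rose by 0.83 ± 0.23.

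The other lists with a late-induced gene gave these counts from 4 h to 8 h in NFYB siRNA cells. Chromatin and transcription regulators, with SMARCA2 and HDAC9, had 8 of 41 called higher and 5 lower. Heat shock chaperones, with DNAJB1, had 3 of 20 higher and 1 lower. DNAJB1, which delivers clients to HSP70, was called lower from 0 h to 4 h (-0.32 ± 0.08) and higher from 4 h to 8 h (0.71 ± 0.08, adjusted p = 1.93e-08).

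The p53 target list, with PERP of the desmosome, had 3 of 20 called higher and 7 lower, and DNA damage repair, with NBN of the MRE11 complex, 1 of 34 higher and 13 lower. Glycolysis and hypoxia (PDK3) had 2 of 31 higher and 4 lower, and lysosome and autophagy (LAMP1) 2 of 35 higher and 4 lower. PERP rose by 0.37 ± 0.13 (adjusted p = 0.0468), which failed the test in 8 of 12 fits that left out 1 array (each of the 6 Ambion arrays, Dharmacon replicate 1 at 4 h or Dharmacon replicate 2 at 8 h). NBN changed by 0.22 ± 0.15 with no call. Immediate-early and stress transcription factors had 28 of 38 called higher from 0 h to 4 h, beside 15% of all probe sets. From 4 h to 8 h, 17 of 38 were called lower, beside 12.2% of all genes. None was a member, but the 4 h limit of the rule leaves out genes already higher at 4 h, so their absence is no result.

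The span of the gene, a feature the choice did not use, was longer among late-induced genes. All 94 matched the RefSeq gene table (GRCh38.p14), with a median span from first to last base of 59.4 kb and quartiles of 28.7 and 194 kb. The median was 29.98 kb for 3168 candidate genes, 28.9 kb for 11954 measured genes and 23.7 kb for 82 early-induced genes. Genes of 100 kb or more were 37 of 94 (39.4%), against 16.5% of candidates, 18.8% of measured genes and 23.2% of early-induced genes. Genes of 300 kb or more were 13 of 94 (13.8%), against 3.06%, 4.38% and 2.44%. These are counts with no test of their difference. For 100 probe sets lowered between 4 h and 8 h in control arrays under the same limits (97 genes) the median was 48.9 kb and 30.9% had 100 kb or more, so longer span was not a feature of late-induced genes alone.

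The leading members included the longest. CTNND2 spans 933 kb, HDAC9 916 kb, PTPRM 840 kb, NALF1 704 kb, AGAP1 638 kb and CADPS2 568 kb, while BCL2A1 spans 10.3 kb. Of the 13 member probe sets for genes of 300 kb or more, 11 were called higher from 4 h to 8 h in NFYB siRNA cells with a median change of 0.90, and the other two were those for DOCK4 and STAU2. In the 4 shorter classes, under 10 kb, 10 to 30 kb, 30 to 100 kb and 100 to 300 kb, the medians were 0.54, 0.40, 0.55 and 0.49. The probe sets called higher in these 4 classes were 4 of 8, 10 of 17, 23 of 34 and 20 of 28, beside 68 of all 100.

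These medians showed no order by span below 300 kb. All induced genes were then grouped by span, a comparison chosen after the members' spans were seen. The 983 genes with a control log2 change of at least 1 from 0 h to 8 h and a mean signal of at least 200 at 8 h were measured in NFYB siRNA arrays. Their median change from 4 h to 8 h was 0.14 under 10 kb (151 genes), 0.23 from 10 to 30 kb (188), 0.31 from 30 to 100 kb (345), 0.38 from 100 to 300 kb (254) and 0.63 at 300 kb or more (45). These genes include 36 late-induced genes, and without them the medians were 0.14, 0.22, 0.31, 0.37 and 0.55, the last over 38 genes. The share called higher went from 29.8% in the shortest to 71.1% in the longest class, or from 29.1% to 65.8% without the late-induced genes. Their change from 0 h to 4 h was 1.76 in the shortest class and between 1.08 and 1.20 in the other 4. Over all measured genes, induced or not, 3.57% of the shortest and 14.5% of the longest class were called higher from 4 h to 8 h, while the median changes of the 5 classes, -0.08, -0.06, -0.06, -0.02 and -0.04, lay close together and did not follow the order of span.

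**Figure D3:**
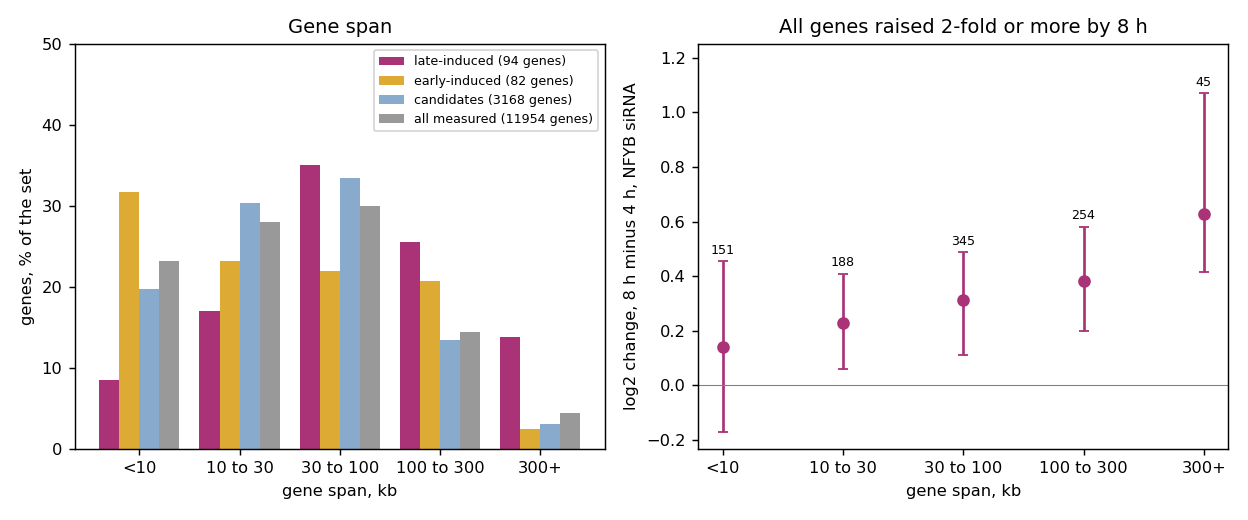
Left, the percentage of genes in 5 classes of gene span (kb, horizontal axis) for late-induced, early-induced, candidate and all measured genes. Right, median log2 change from 4 h to 8 h in NFYB siRNA arrays, with quartiles as bars and the number of genes above, for 983 genes raised at least 2-fold by 8 h in control arrays, 36 of them late-induced; the medians go from 0.14 in the shortest class to 0.63 in the longest.

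The promoters were examined for the letters of the factors under study. RefSeq promoter entries (GRCh38.p14) matched 69 of the 94 genes, or 73.4%, which is under 80%, so a comparison of promoter features with other genes is void for want of entries. Searched on both strands in the 250 bases before the first listed start, CCAAT was found in 28 of the 69 and the E2F letters TTTCCCGC, TTTGGCGC, TTTCGCGC or TTTGCCGC in 6 of the 69. The shares with CCAAT, with E2F letters and with both were 35.8%, 5.31% and 2.45% for candidate genes with an entry, 35.6%, 4.09% and 1.79% for measured genes and 33.0%, 2.79% and 1.08% for all 27305 genes of the table, given for reference only. The 4 member promoters with both are printed with the matched letters in capitals, since they hold the letters named for both factors, and that of BCL2A1 is printed as the leading member, which held neither. No matches overlapped in them.
CAMKK2 (chr12:121296710-121296959, minus strand): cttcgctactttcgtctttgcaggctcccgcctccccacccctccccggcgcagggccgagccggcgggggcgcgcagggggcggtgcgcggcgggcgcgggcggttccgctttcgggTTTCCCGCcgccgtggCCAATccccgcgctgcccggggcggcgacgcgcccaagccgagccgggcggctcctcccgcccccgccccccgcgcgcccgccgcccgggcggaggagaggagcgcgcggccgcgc
MORC4 (chrX:107000213-107000462, minus strand): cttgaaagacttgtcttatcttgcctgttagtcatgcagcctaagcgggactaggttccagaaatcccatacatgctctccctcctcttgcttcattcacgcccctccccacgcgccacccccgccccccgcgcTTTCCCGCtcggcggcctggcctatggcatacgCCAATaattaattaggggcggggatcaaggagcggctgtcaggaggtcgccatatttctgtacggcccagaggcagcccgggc
HNRNPA3 (chr2:177212544-177212793, plus strand): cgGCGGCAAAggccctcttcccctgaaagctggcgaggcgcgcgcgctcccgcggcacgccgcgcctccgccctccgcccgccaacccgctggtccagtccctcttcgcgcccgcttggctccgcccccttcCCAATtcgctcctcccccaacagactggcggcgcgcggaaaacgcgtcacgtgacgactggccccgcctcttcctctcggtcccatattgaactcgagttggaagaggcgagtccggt
DOCK4 (chr7:112206400-112206649, minus strand): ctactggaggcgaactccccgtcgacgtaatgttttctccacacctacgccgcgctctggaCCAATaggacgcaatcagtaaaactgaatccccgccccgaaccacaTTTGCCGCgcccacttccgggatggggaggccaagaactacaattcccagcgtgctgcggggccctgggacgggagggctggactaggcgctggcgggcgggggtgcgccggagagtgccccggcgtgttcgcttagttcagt
BCL2A1 (chr15:79971197-79971446, minus strand): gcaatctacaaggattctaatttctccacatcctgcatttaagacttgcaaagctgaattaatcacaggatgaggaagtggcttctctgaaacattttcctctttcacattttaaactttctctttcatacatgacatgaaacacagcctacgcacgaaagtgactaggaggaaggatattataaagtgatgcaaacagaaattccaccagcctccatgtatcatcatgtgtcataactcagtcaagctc
The BCL2A1 window had a GC content of 38.8% and 2 CpG pairs, where the 69 matched members had medians of 68.8% and 27. A match of letters is a description and not evidence that a factor binds there.

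The late change of members with and without CCAAT can be set side by side. In NFYB siRNA cells 21 of 30 member probe sets with CCAAT were called higher from 4 h to 8 h, with a median of 0.56, and 32 of 44 without it, with a median of 0.57. Of the 4 genes printed with both kinds of letters, CAMKK2 rose by 0.58 ± 0.15, MORC4, a protein of the MORC ATPase family, by 0.61 ± 0.09 and the RNA-binding protein HNRNPA3 by 0.79 ± 0.15 on probe set 211930_at, while DOCK4 was not called.

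The late change was next compared between the 2 NFYB siRNAs. The median over the 100 was 0.60 with Ambion siRNA and 0.52 with Dharmacon siRNA, and 89 of the 100 were above 0 with both. The limma test of the difference between the siRNAs called 0 of the 100, where 0.131% of all probe sets were called. At an unadjusted p under 0.05 it gave 25 of the 100 (9 larger with Dharmacon and 16 larger with Ambion siRNA), beside 12.8% of all probe sets. The nearest to a call were PPM1B, which rose by 0.54 ± 0.13 more with Dharmacon siRNA (adjusted p = 0.0829), and DNAJB1, by 0.40 ± 0.11 more (adjusted p = 0.0931). BCL2A1 rose by 2.79 with Ambion and 1.93 with Dharmacon siRNA, a difference of -0.86 ± 0.26 (adjusted p = 0.139).

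Between the arms, the members' values can be set side by side but not tested, since the control arrays chose them for a large change. The NFYB siRNA change from 4 h to 8 h was smaller than the control change for 82 of the 100, with a median difference of -0.16. Members chosen on 1 control siRNA and measured against the other did not show this when the NFYB siRNAs were pooled. For 100 chosen on Dharmacon control arrays, the median change was 0.72 there, 0.47 in Sigma-Aldrich control arrays and 0.50 in NFYB siRNA arrays, a median difference of 0.00987 with quartiles of -0.12 and 0.18. For 100 chosen on Sigma-Aldrich control arrays it was 0.78 there, 0.42 in Dharmacon control arrays and 0.42 in NFYB siRNA arrays, a median difference of -0.02 with quartiles of -0.19 and 0.14. With the NFYB siRNAs pooled, the fall to NFYB siRNA arrays was no larger than the fall to control arrays that made no choice. Taken singly, the NFYB siRNAs differed. For members chosen on Dharmacon control arrays the median was 0.44 with Ambion and 0.55 with Dharmacon NFYB siRNA, beside 0.47 in Sigma-Aldrich control arrays. For those chosen on Sigma-Aldrich control arrays it was 0.60 and 0.26, beside 0.42 in Dharmacon control arrays. A late change equal to that of control cells is thus not shown for either NFYB siRNA.

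**Figure D4:**
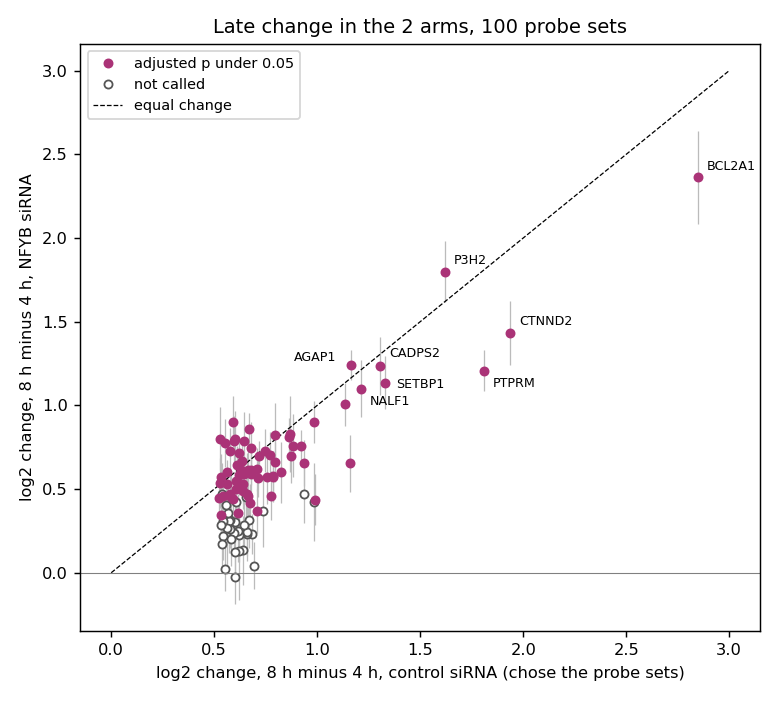
Log2 change from 4 h to 8 h of the 100 late-induced probe sets in control siRNA arrays (horizontal, the values that chose them) and in NFYB siRNA arrays (vertical, bars are SE), with filled points for the 68 called higher and a dashed line of equal change. Of the points, 82 lie below the line, and 8 genes with the greatest change in control arrays are named.

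Single members whose arms did not overlap were few, and are given as values. All 6 NFYB siRNA arrays lay below all 6 control arrays for 3 members at 0 h, 3 at 4 h and 7 at 8 h, beside 1.45%, 1.17% and 1.82% of all probe sets, and above them for 1, 2 and 3 members, beside 1.05%, 0.99% and 1.63%. ABCB1 was below at each time: its signals at 0 h were 25.2 to 63.2 (median 52.1) in NFYB siRNA cells and 132 to 191 (median 158) in control cells, and at 8 h 138 to 172 against 290 to 371. CHCHD7 and SIVA1 were above at 4 h and 8 h. SIVA1 signals at 8 h were 1908 to 2691 with NFYB siRNA and 1344 to 1560 with control siRNA, and those of CHCHD7 were 1217 to 1601 and 659 to 878. WDR37, a WD-repeat protein, was below at 0 h and 4 h, with 72.4 to 132.5 against 166 to 222 at 4 h.

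The label "late" held for a probe set and not always for its gene. For 5 genes (SMARCA2, FDX1, PCM1, EPB41L3 and HNRNPA3) more than 1 probe set was a member. FDX1, a mitochondrial electron carrier, rose by 0.42 ± 0.23 on 203646_at (adjusted p = 0.25) and by 0.49 ± 0.11 on 203647_s_at (adjusted p = 0.00115) in NFYB siRNA cells. PCM1, of the pericentriolar material, was called on both (0.73 and 0.55), EPB41L3, of the membrane skeleton, on neither (0.29 and 0.22), and HNRNPA3 on 1 of its 2 (0.79 and 0.40). A brighter HNRNPA3 probe set that was no member, 211932_at, changed by 0.11 in control cells. In NFYB siRNA cells it changed by 0.08 ± 0.16 (adjusted p = 0.831), so the rise of HNRNPA3 did not hold on all its probe sets.

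Of the 94 genes, 47 had further single-gene probe sets, 87 in all, and 44 of these had a control mean of at least 200 at 8 h. In NFYB siRNA cells 20 of the 44 were called higher from 4 h to 8 h and 0 lower, and 40 were above 0. For 14 of the 44 the control change by 4 h was above 0.4, so they did not meet the 4 h limit. FNBP1 rose by 1.14 and then 0.47 on 213940_s_at in control cells, and SLCO3A1 by 0.89 and then 0.52 on 219229_at. Others rose more in the second step, such as RBBP6 (0.48, then 0.65 on 212781_at) and EPB41L3 (0.47, then 0.79 on 212681_at). Bright probe sets of other genes changed little: SKP1, a subunit of SCF ubiquitin ligases, changed by 0.59 on its member probe set and by 0.04 ± 0.06 on 200718_s_at. In control cells LAMP1 changed by 0.53 on its member probe set and by 0.06, 0.23 and 0.06 on its brighter ones. NBN changed there by 0.54 on its member probe set and by 0.02, 0.07 and 0.28 on its others. PPM1B changed by -0.35 ± 0.18 on 213225_at, with no call, where its member probe set rose by 0.90. Of the 100 member probe sets, 48 end in _s_at and 7 in _x_at, types that can read more than 1 transcript or related sequences, UBE2NL among them, whose sequence is near that of UBE2N.

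The limits of the rule had members close on both sides. Ranks 98 to 100 were LAMP1, UBE2NL and HNRNPH3 with control changes of 0.53, 0.53 and 0.52, and the next 3 were ACOT7, ETV5 and WIPI2, each with 0.52. LANCL2 was nearest the upper limit at 4 h (0.39) with CLIP1 just past it (0.40), DNAJB1 nearest the lower limit (-0.38) with TDG past it (-0.50), and P3H2 nearest the signal limit (210 at 8 h) with PPP1R9A under it (199). A further 330 probe sets rose enough from 4 h to 8 h but failed the 4 h limit, 310 of them because they were already higher at 4 h.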

How the data were processed

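RNA of 36 cultures was measured on Affymetrix human expression arrays. The authors computed MAS5 signals, a linear intensity, in Affymetrix Expression Console (version not given in the sources used here). Tested on the files, the mean over all 22277 probe sets with 2% trimmed at each end is 500 on each array. The deposited values carry no detection calls, and 62 control probe sets were left out. Probe sets were named from the GEO platform annotation, with 19064 naming 1 gene, 1043 several and 2108 none.

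The model had 6 groups (arm by time, siRNAs of an arm pooled) and was run on log2 signal without an offset by limma 3.58.1 (R 4.3.3), with variances moderated along a trend (36.3 degrees of freedom). Tests were two-sided and adjusted by Benjamini and Hochberg over 22215 probe sets, and a change was called at an adjusted p under 0.05. The difference between the NFYB siRNAs used 12 groups. Fold changes are 2 to the power of the log2 change. The labels call the replicates biological. In the model of 6 groups, p-values measure the spread between replicates together with the spread between the siRNAs pooled in an arm. The number of arrays limits the precision. The fit was tested on simulated data, with probe sets drawn from the whole array and changed by a known amount. Of 100 changed by a log2 of 0.5 it called 32, and of 100 changed by 1 it called 58, with 4 false calls. A missing call is therefore not evidence of no change.

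Members and gene lists were chosen with earlier results of these data known, so lists carry no test. Genes are named by a rule: the 12 members with the greatest control change, the 8 greatest and 8 smallest in NFYB siRNA arrays, up to 4 per list, genes with several member probe sets, those at the limits of the rule, and members that are transcription factors, kinases, phosphatases, secreted factors or receptors; others named for span, promoter letters, other probe sets or arms that do not overlap were picked after their values were seen. Alternatives covered offset, normalization, brightness, variance trend, arrays fitted, siRNA and replicate as blocks, each siRNA alone, the methods' t-test, left-out arrays and the steps of the rule. Leaving the members out of the comparison by gene span was chosen after seeing the data.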

Additional observations from a re-analysis of the deposited data

Results flagged for a closer look

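Among 20 probe sets with the greatest control change or with the greatest or smallest NFYB siRNA change, 120 groups of 6 arrays were examined for 1 array far from the others (a gap to the nearest array above Dixon's critical value), and 5 were found, where chance gives about 1 in 20 groups. CTNND2 in control siRNA cells at 8 h had its lowest signal, 177.5, on a Sigma-Aldrich array, with the others between 209.4 and 227.8. P3H2 in control siRNA cells at 8 h had its highest, 264.9, on the same array (Sigma-Aldrich control, replicate 3), with the others between 189.4 and 206.7. NALF1 in NFYB siRNA cells at 4 h had its highest, 112.6, on a Dharmacon array, with the others between 81.77 and 91.08. SIRT2 in NFYB siRNA cells at 8 h had its lowest, 161.1, on a Dharmacon array, with the others between 232.9 and 258.7. ASPH in NFYB siRNA cells at 0 h had its lowest, 1478, on a Dharmacon array, with the others between 2898 and 3793.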

How the results depend on the processing

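Counts of late-induced probe sets called higher in NFYB siRNA cells from 4 h to 8 h (68) ran from 56 (Dharmacon NFYB siRNA alone) to 80 (siRNA by time as 12 groups) over other settings of the fit and from 53 to 70 with arrays left out. Of the 68, 40 were called in every alternative. The call was lost by 8 without some single array, by 24 without 1 replicate number and by 24 under another setting of the fit, and these groups overlap. From 0 h to 4 h, 30 were called higher, and 18 to 31 with arrays left out (19 without replicate 2 and 18 without replicate 3 of all conditions). From 0 h to 8 h the count of 85 ran from 70 to 89, and the 1 call of a lower level, DOCK4, became 0 calls with quantile normalization, with NFYB siRNA arrays only, with Ambion siRNA alone, with the methods' t-test and in some fits with arrays left out (0 to 1). The 0 calls between the NFYB siRNAs became 1 with a replicate block and 0 to 3 with arrays left out. Replicate numbers did not pair the arrays: of 36 pairs of same-numbered arrays 4 had a correlation of deviations over 0.1 (range -0.187 to 0.219), and with the replicate block 69 were called from 4 h to 8 h. The median difference between the arms, -0.160, was 0.00987 for members chosen on Dharmacon and measured against Sigma-Aldrich control arrays; both sets of values are in the report. Of the 100 members, 61 stayed with an 8 h mean of at least 400, 42 with a 4 h change within 0.2, 54 when chosen on Dharmacon and 51 on Sigma-Aldrich control arrays alone, and the last 2 lists shared 19 of 100. No direction of a called member was reversed in the alternatives run, and where calls changed the cause was not tested. Without detection calls, signals under about 200 are of unknown precision.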
